A study of Mus musculus with 6 samples.

Results

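The immediate early genes of the AP-1 and Egr families were followed here through 10 members, namely Fos, Fosb, Jun, Junb, Jund, Egr1, Atf3, Ier2, Dusp1 and Btg2. They were taken by symbol from a table of 23827 rows, and each of the 10 matched a single row with a single RefSeq transcript. The samples were brain endothelial cells of mouse embryos at stage E14.5, on a C57BL/6 x 129/Sv background, in 2 groups of 3 biological replicates. The wild-type group is labelled Wt. The other group is labelled R26 Axin1 IresLacZ overexpression and expresses Axin1, with a LacZ reporter behind an internal ribosome entry site, from the Rosa26 locus. Mothers of both groups had received tamoxifen at E12.5. The labels name neither the Cre driver, nor the allele that tags the ribosomes, nor the number of embryos behind a library. RNA was isolated by translating ribosome affinity purification, in which tagged ribosomes of a chosen cell type are pulled down with the messenger RNA they carry, and polyadenylated RNA was sequenced. The values are therefore levels of ribosome-bound RNA.

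Immediate early genes are switched on within minutes of a growth factor, calcium or stress signal, without new protein synthesis, by factors that already sit at their promoters, such as serum response factor with its Elk partners and CREB. Fos and Jun proteins pair through leucine zippers to form AP-1, which binds the DNA of its target genes, while Egr1 binds GC-rich sites through zinc fingers. Dusp1 removes phosphate from MAP kinases and so dampens the signal. In endothelium the programme is known to answer VEGF and blood flow. Axin1 holds together the proteins that target beta-catenin for degradation, and raising it is known to lower canonical Wnt signalling.

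Recovered library sizes were 53524184 to 62507510 reads for wild type and 21076922 to 37040176 reads for Axin1, so the Axin1 values rest on fewer reads. Values are RPKM, read counts scaled to transcript length and to library size. Changes were tested with limma on log2(RPKM + 1) for the 12493 genes whose mean reached 1 RPKM. Fold changes are on that scale, on which the change of a low gene comes out too small. P-values were adjusted by Benjamini-Hochberg over all tested genes and called under 0.05. Axin1, the check of the labels, was between 13.6 and 15.1 RPKM in wild type and between 37.4 and 38.0 RPKM in the Axin1 libraries (log2 fold change 1.34, SE 0.06, limma adjusted p = 2.25e-05). In all, 2846 genes passed, 1800 higher and 1046 lower with Axin1 overexpression, and 1248 higher and 1392 lower after rescaling by the median of ratios. The count fell to 1054 without Axin1 replicate 2 and to 1402 without Axin1 replicate 3. Column names carry the tag RS148 for wild type and RS216 for Axin1. The labels do not explain these tags, and whatever they mark cannot be told apart from genotype.

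Fos rose with Axin1 overexpression. It encodes the inducible partner of the Jun proteins in AP-1. Its level was 1.04, 0.869 and 1.12 RPKM in wild-type replicates 1 to 3 and 2.35, 3.42 and 2.76 RPKM in Axin1 replicates 1 to 3. All 3 Axin1 libraries lay above all wild-type libraries, and the ratio of the group means was 2.81. The log2 fold change was 0.93 (SE 0.10, limma adjusted p = 0.000976), above that of 99.5% of tested genes. The RPKM values rest on 97 to 135 reads per library in wild type and 122 to 265 reads in the Axin1 libraries. Fos remained a low-level message in both groups, at the percentile 34.0 of the genes with reads in wild type and 43.2 with Axin1. The size of the log2 change depends on the pseudocount, with 0.22 at 10 RPKM and 1.40 at 0.1 RPKM, while the call held at each.

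The start regions of the members are shown because some of them share a core of the cAMP response element, which CREB and related factors bind. RefSeq (GRCm38.p6) gave a window of 250 bases before to 50 after the start for 8 of the 10 members, with none for Egr1 and Ier2. The Jund window lies at a start 1210 bases upstream of its reference transcript. The window starts of Junb, Btg2 and Dusp1 lie 30, 35 and 47 bases from those of their reference transcripts, and distances below are from the window start. The 250 bases before the start are printed for the genes with the clearest rises, Fos and Dusp1, and for Btg2 and Atf3, which hold the same letters. Capitals mark TGACG on either strand, the longer TGACGTCA that contains it, and TATAAA.
Fos promoter, chr12:85473640-85473889, plus strand: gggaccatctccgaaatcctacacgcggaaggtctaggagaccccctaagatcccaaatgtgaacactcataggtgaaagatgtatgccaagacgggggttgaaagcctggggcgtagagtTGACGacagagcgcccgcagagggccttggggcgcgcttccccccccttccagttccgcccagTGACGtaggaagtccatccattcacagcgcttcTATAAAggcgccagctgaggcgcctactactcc
Dusp1 promoter, chr17:26508473-26508722, minus strand: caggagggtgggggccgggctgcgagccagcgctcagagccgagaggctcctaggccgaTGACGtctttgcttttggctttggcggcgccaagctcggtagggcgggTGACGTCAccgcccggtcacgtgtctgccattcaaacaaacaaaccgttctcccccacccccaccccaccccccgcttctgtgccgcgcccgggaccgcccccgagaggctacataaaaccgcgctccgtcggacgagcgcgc
Btg2 promoter, chr1:134079156-134079405, minus strand: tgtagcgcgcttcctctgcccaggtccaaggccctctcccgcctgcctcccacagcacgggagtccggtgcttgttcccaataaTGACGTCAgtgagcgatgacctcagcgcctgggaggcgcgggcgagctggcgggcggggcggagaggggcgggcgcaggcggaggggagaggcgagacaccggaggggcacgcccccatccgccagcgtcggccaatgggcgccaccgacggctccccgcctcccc
Atf3 promoter, chr1:191183334-191183583, minus strand: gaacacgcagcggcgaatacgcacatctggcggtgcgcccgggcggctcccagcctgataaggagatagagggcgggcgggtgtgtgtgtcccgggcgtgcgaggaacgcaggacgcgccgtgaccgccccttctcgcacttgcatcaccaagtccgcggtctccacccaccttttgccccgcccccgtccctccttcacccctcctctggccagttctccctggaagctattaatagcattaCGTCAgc
The core TGACG, chosen after the windows had been read, was present in 6 of the 8 members (Fos, Fosb, Junb, Atf3, Dusp1 and Btg2) and in 30.9% of the windows of tested genes. In Fos it lay 66 and 129 bases before the start, and TATAAA 33 bases before it. The full palindrome TGACGTCA was present in Dusp1, 143 bases before the start, and in Btg2, 166 bases before it, against 3.07% of the windows of tested genes. The EGR site GCGGGGGCG was found in Fosb alone among the members (5.56% of windows of tested genes). TATAAA was found in Fos and, at the RefSeq start used for the window, in Junb (6.78% of those windows). The CArG box (serum response element), the AP-1 site TGANTCA and the TCF/LEF site ATCAAAG were in none of the 8 windows, against 1.32%, 4.66% and 2.38% of the windows of tested genes. Both strands were searched for these patterns alone, so sites beyond the windows or with other letters would not be found. The members that hold TGACG went in both directions, with Atf3 at a log2 fold change of -0.17.

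Fosb, the closest relative of Fos among the members, was barely detected. Its level was 0.0811, 0.0646 and 0.157 RPKM in wild type and 0.196, 0.1001 and 0.138 RPKM in the Axin1 libraries, from 11 to 34 reads per library. The groups overlapped, and Fosb was the only member below the filter of a mean of 1 RPKM. Without a filter its log2 change was 0.06 (SE 0.05, limma adjusted p = 0.523), and a difference was not detectable at this depth. In every library Fos was at least 7.16 times the level of Fosb in RPKM.

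**Figure D1:**
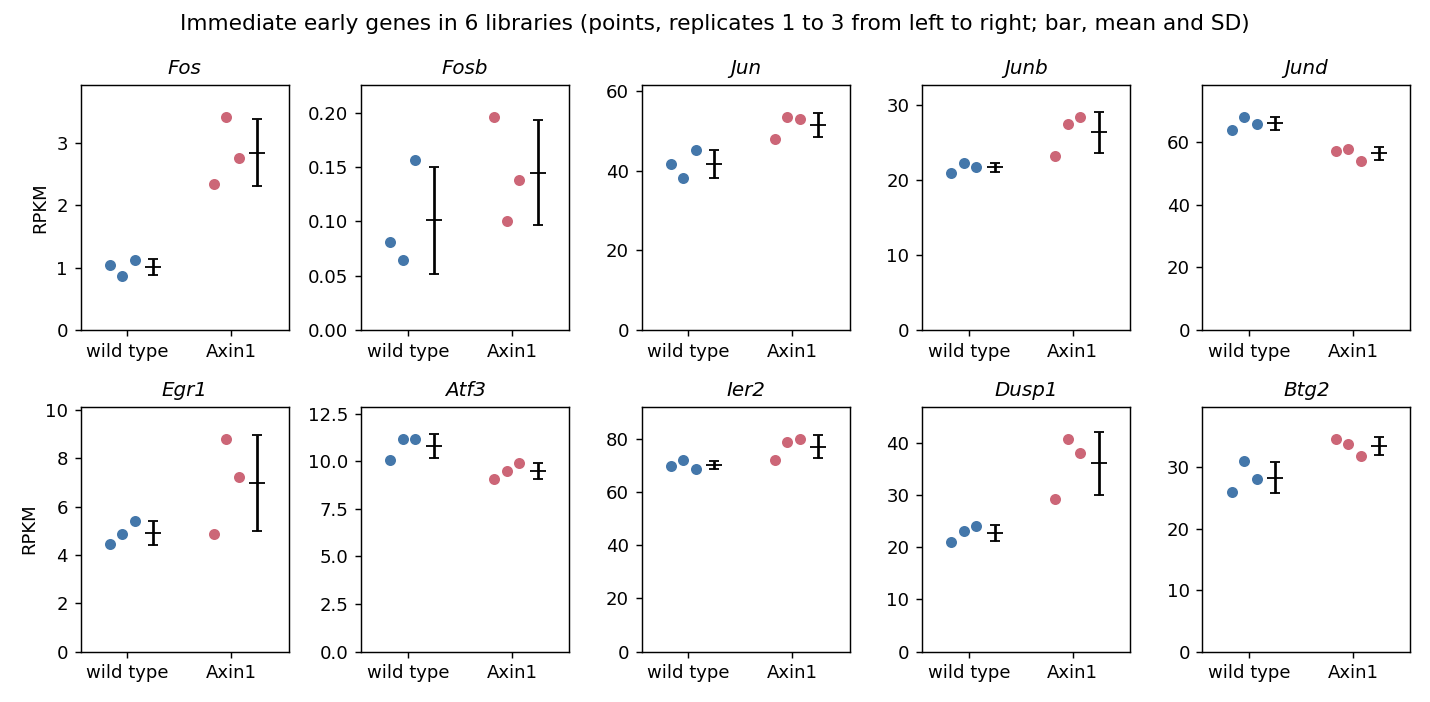
RPKM (y axis, from 0, a scale of its own for each gene) of the 10 members in the 3 wild-type and 3 Axin1 libraries, with points for replicates 1 to 3 from left to right and a bar for the mean and SD. Fos, Jun, Junb, Ier2, Dusp1 and Btg2 lie higher in all Axin1 libraries, Jund and Atf3 lower in all of them, and Fosb and Egr1 overlap.

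The Jun family changed in opposite directions. Jun, the classic partner of Fos, was 41.7, 38.1 and 45.1 RPKM in wild type and 48.0, 53.5 and 52.9 RPKM with Axin1 overexpression. The groups did not overlap, and the log2 fold change was 0.30 (SE 0.08, limma adjusted p = 0.0288). Junb, which often acts as a weaker activator than Jun, was 21.0, 22.2 and 21.8 RPKM in wild type and 23.2, 27.4 and 28.4 RPKM with Axin1, again without overlap. Its log2 fold change was 0.27 (SE 0.08, limma adjusted p = 0.0488). Axin1 replicate 1 was the lowest Axin1 library for both genes. Jund, the family member that is made steadily rather than on demand, was 64.0, 68.2 and 66.0 RPKM in wild type and 57.3, 58.1 and 54.1 RPKM with Axin1. All Axin1 libraries lay below all wild-type ones, and the log2 fold change was -0.22 (SE 0.06, limma adjusted p = 0.0324).

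These 3 calls are less firm than that of Fos. With 1 library left out in turn, Jun passed in 2 of 6 fits, Junb in 1 (without Axin1 replicate 1) and Jund in 0, with adjusted p up to 0.109, 0.159 and 0.115. The direction held in all 6 fits for each of them. After rescaling by the median of ratios the log2 fold changes were 0.25, 0.22 and -0.27, and Junb did not pass.

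The total of the 3 Jun genes moved less than its parts. It was between 126.7 and 132.9 RPKM in wild type and between 128.4 and 139.0 RPKM in the Axin1 libraries, and the ranges overlapped. Within that total Jund made up 50.5%, 53.1% and 49.7% in wild type and 44.6%, 41.8% and 40.0% with Axin1. Jun made up 29.6% to 33.9% in wild type and 37.3% to 39.1% with Axin1. The ratio of Jun to Jund was 0.652, 0.559 and 0.683 in wild type and 0.838, 0.922 and 0.978 with Axin1, so that no Axin1 library reached the wild-type range. This ratio does not depend on how the libraries are scaled. It was computed after the opposite directions had been seen and is given without a test. Fos was 0.618% to 0.772% of the summed RPKM of Fos, Fosb, Jun, Junb, Jund and Atf3 in wild type and 1.68% to 2.25% with Axin1, so that Jun family messages far exceeded Fos in both groups.

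**Figure D2:**
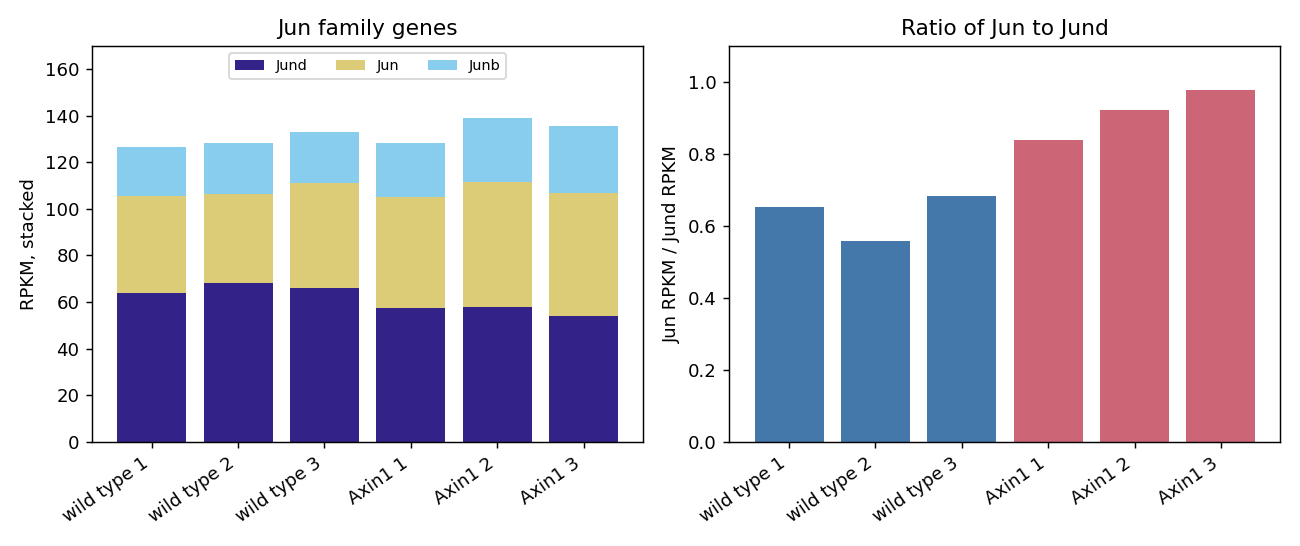
Left, RPKM of Jund, Jun and Junb stacked for each library (y axis from 0). Right, the ratio of Jun to Jund RPKM in each library, which is 0.559 to 0.683 in wild type and 0.838 to 0.978 with Axin1.

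The annotation limits what the Jun and Jund values mean. Jun, Junb, Jund and Ier2 each have 1 exon in the reference annotation (GENCODE M21, GRCm38), while the other members have 2 to 4. The length behind the RPKM values, recovered from reads and RPKM, was 3180 bases for Jun against 3189 in the reference. For Jund it was 2871 bases against 1668, a longer model whose start lies upstream. The RPKM of Jund is accordingly divided by 1.72 times the reference length, which bears on its level beside other genes. Reads inside and outside the reference model were not compared. Antisense genes overlap exons of Jun (Junos) and Jund (Gm11175), and the named library kit does not mark strand, so reads of gene and antisense partner cannot be told apart.

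Egr1, a zinc finger factor induced by MAP kinase signalling, did not pass. It was 4.44, 4.88 and 5.42 RPKM in wild type and 4.88, 8.82 and 7.22 RPKM with Axin1. Axin1 replicate 1 lay inside the wild-type range and the other Axin1 libraries above it. The log2 fold change was 0.40 (SE 0.16, limma adjusted p = 0.108). The spread among the Axin1 libraries was wider than that of 99.1% of tested genes on the log2 scale. Without Axin1 replicate 1 the log2 fold change was 0.61 (limma adjusted p = 0.0162), and without Axin1 replicate 2 it was 0.24 (limma adjusted p = 0.305).

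Atf3, a stress-induced partner of Jun that often represses its targets, was 10.1, 11.2 and 11.2 RPKM in wild type and 9.074, 9.496 and 9.925 RPKM with Axin1. The groups did not overlap, with all Axin1 libraries lower. The log2 fold change was -0.17 (SE 0.07, limma adjusted p = 0.0998). It passed after rescaling by the median of ratios alone (-0.22, limma adjusted p = 0.044). Fos and Atf3, both genes of AP-1 proteins that respond to stimuli, thus lay on opposite sides of wild type in these libraries.

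Dusp1, the phosphatase that switches off p38, JNK and ERK kinases, rose. It was 21.1, 23.1 and 24.1 RPKM in wild type and 29.3, 40.8 and 38.1 RPKM with Axin1. The groups did not overlap, and Axin1 replicate 1 was again the lowest of its group. The log2 fold change was 0.63 (SE 0.12, limma adjusted p = 0.00899), larger than that of 98.9% of tested genes. With 1 library left out the call held in 6 of 6 fits, at log2 fold changes between 0.54 and 0.77. Dusp1 and Fos were the only members to pass in every fit that left out a library.

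Btg2 and Ier2 did not pass. Btg2, which slows cell division and recruits the machinery that removes poly(A) tails, was 25.9, 30.9 and 28.0 RPKM in wild type and 34.6, 33.8 and 31.8 RPKM with Axin1, without overlap. Its log2 fold change was 0.24 (SE 0.08, limma adjusted p = 0.0578). It passed at a pseudocount of 10 (limma adjusted p = 0.045), with the filter at 5 RPKM (0.046), with trend and robust variances (0.0401), with voom on recovered reads (0.0384) and without wild-type replicate 2 (0.0275). Ier2, a small nuclear protein induced along with Fos, was 69.9, 71.8 and 68.8 RPKM in wild type and 72.1, 79.0 and 80.1 RPKM with Axin1. The groups did not overlap by a narrow margin, and the log2 fold change was 0.13 (SE 0.06, limma adjusted p = 0.163). Ier2 passed under no alternative.

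Across the members, 9 of 10 were tested and 5 passed, 4 higher (Fos, Dusp1, Jun and Junb) and 1 lower (Jund). Of all tested genes 22.8% passed, with 14.4% higher and 8.37% lower. The median log2 fold change of the 9 members was 0.27, against 0.04 over all tested genes. The members were chosen with earlier results of these data known, so these figures describe them and are no test. The groups did not overlap for 8 members, 6 of them higher and 2 lower with Axin1. Among all tested genes 43.9% did not overlap, 28.0% higher and 15.9% lower. The count of 5 fell to 2 without wild-type replicate 1, Axin1 replicate 2 or Axin1 replicate 3, and to 3 without wild-type replicate 2 or 3. In the authors' deposited table of normalized count means, Fos was 2.72 times and Dusp1 1.53 times as high with Axin1. The authors' deposited adjusted p-values were 7.71e-08 for Fos and 0.00606 for Dusp1, while the other 8 members lay between 0.0809 and 0.804. By that column of the authors' deposited table, 8.88% of 18917 genes had an adjusted p under 0.05, and 3.91% were both under it and higher with Axin1.

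**Figure D3:**
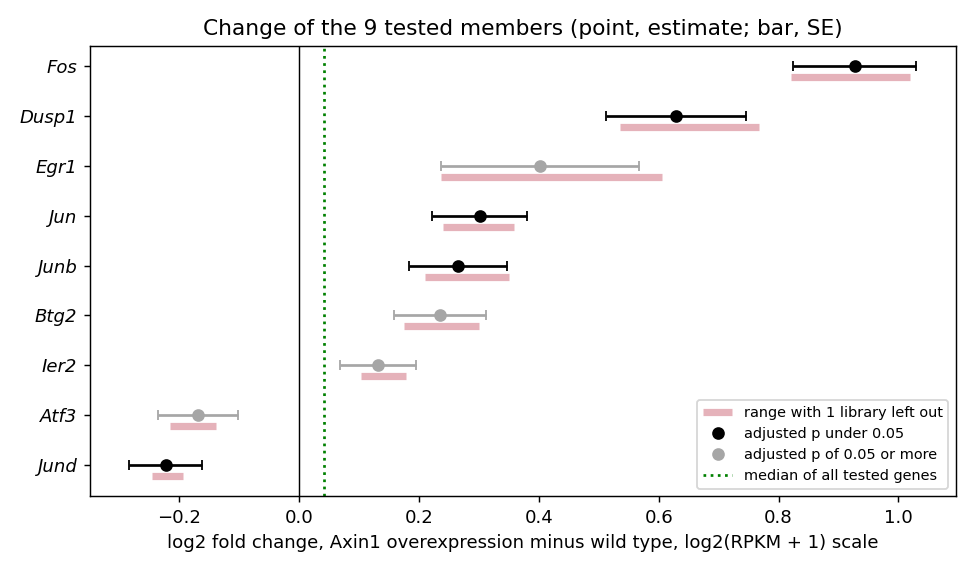
Log2 fold change of the 9 tested members (x axis, Axin1 overexpression minus wild type on the log2(RPKM + 1) scale) with its SE, in black where the adjusted p is under 0.05, above the range found when 1 library is left out. Fos (0.93) and Dusp1 (0.63) stand farthest to the right, and Jund (-0.22) and Atf3 (-0.17) lie left of 0.

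The order of levels was nearly the same in both groups. In wild type it ran, in mean RPKM, from Ier2 (70.2) through Jund (66.1), Jun (41.6), Btg2 (28.3), Dusp1 (22.8), Junb (21.7), Atf3 (10.8), Egr1 (4.92) and Fos (1.01) to Fosb (0.101). Dusp1 and Junb overlapped, and the other neighbours did not overlap in these 3 libraries. With Axin1 the means of Dusp1 (36.1 ± 6.02, SD, n = 3) and Btg2 (33.4 ± 1.44, SD, n = 3) stood in the opposite order, with overlapping values.

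Axin1 replicate 1 was often the lowest Axin1 library, among the members and among all tested genes alike. Axin1 replicate 1 was the lowest of the 3 for 7 of 10 members (Fos, Jun, Junb, Egr1, Atf3, Ier2 and Dusp1), and for 52.0% of all tested genes. It was the lowest for 5 of the 6 members that were higher without overlap, and for 60.0% of the 3501 tested genes of that kind. Btg2, the sixth, had its highest value there. Fos, Egr1 and Dusp1 had their highest level in Axin1 replicate 2. Their SDs on the log2(RPKM + 1) scale in that group exceeded those of 94.8%, 99.1% and 97.0% of tested genes, while in wild type the same figures were 54.5%, 68.6% and 55.7%. This scale shrinks the spread of Fos more in wild type (mean 1.01 RPKM) than with Axin1 (mean 2.84 RPKM).

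Markers of other cells were read in the same libraries, since in bulk RNA fewer cells of a type and less RNA per cell cannot be told apart. The counts of markers stand beside all tested genes, of which 14.4% were higher and 8.37% lower. Endothelial markers were high throughout, with Cdh5 at 369.9 ± 22.4 RPKM in wild type and 394 ± 50.7 RPKM with Axin1 (SD, n = 3). Of the 10 endothelial markers 1 (Emcn) was higher and 3 (Cldn5, Tie1 and Esam) were lower. The summed RPKM of the 10 was 3115 to 3260 in wild type and 2599 to 2804 with Axin1. Cldn5 had the largest values in that sum, 1263 ± 104.1 RPKM in wild type and 748.1 ± 61.3 RPKM with Axin1 (SD, n = 3). Of 8 markers of microglia and macrophages, 7 were tested and 1 (Aif1) was higher. Their summed RPKM was 27.6 to 30.3 in wild type and 50.1, 28.2 and 35.1 in Axin1 replicates 1 to 3. Of 8 neural progenitor markers 5 were higher (summed RPKM 548.8 to 680.9 in wild type and 740.1 to 814.6 with Axin1), and of 8 neuronal markers 4 were higher (460.4 to 600.1 and 577.7 to 601.4). All 4 tested erythroid markers of 7 in the table were higher (summed RPKM 95.5 to 122.1 in wild type and 443, 640.2 and 319 in Axin1 replicates 1 to 3). Of the pericyte and smooth muscle markers 3 of 7 tested were lower (28.3 to 31.8 and 20.9 to 27.7 summed RPKM), as were 3 of 8 meningeal fibroblast markers (156.2 to 214.9 and 124 to 151.9). Like the microglial sum, the endothelial, neural progenitor, pericyte and fibroblast sums were highest in Axin1 replicate 1 among the Axin1 libraries. None of these markers was at 0 in all libraries. Their part in the values of the immediate early genes was not tested.

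Counts for 5 further lists are given beside all tested genes, of which 14.4% were higher and 8.37% lower, with a median log2 fold change of 0.04. The lists were chosen with earlier results of these data known, so their shares and medians are descriptive and test nothing. Of 46 other immediate early genes 41 were tested, and 15 (36.6%) were higher and 2 lower, with a median of 0.11. Rgs2, which restrains G proteins, averaged 36.8 ± 1.53 RPKM in wild type and 63.4 ± 4.43 RPKM with Axin1 (SD, n = 3), and the difference was 0.77 in log2 (limma adjusted p = 0.000354). Plk2, a kinase of the stress response, went from 72.4 ± 6.98 to 121.7 ± 7.37 RPKM (log2 fold change 0.74). Btg1, the closest relative of Btg2, had a log2 fold change of 0.44, and Arc one of 0.39 from a low level (0.791 to 1.35 RPKM). The Arc value was 0.79 by voom and 0.07 with a pseudocount of 10, where its call was lost (limma adjusted p = 0.0766). Named after their values were seen, Nr4a1, an orphan nuclear receptor, rose by a log2 of 0.49 and Zfp36, which binds AU-rich elements and speeds messenger decay, by 0.51. The calls of both were lost without Axin1 replicate 2, and that of Zfp36 also without Axin1 replicate 3. The lower genes were Phlda1 (log2 fold change -0.26) and Tnfaip3 (-0.21). No fit with a library left out kept the call of Tnfaip3, and that of Phlda1 was lost without Axin1 replicate 2 or 3. Egr2, Egr3 and Egr4 stayed under the filter, with group means of 0.0200 to 0.587 RPKM.

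Among the feedback genes of MAP kinase signalling the direction differed from gene to gene. Of 16 phosphatase, Sprouty and Spred genes 15 were tested, and 5 (33.3%, against 14.4% of all tested genes) were higher and 2 lower (8.37% of all tested genes), with a median log2 fold change of 0.09. Spry4, an inhibitor of receptor tyrosine kinases, averaged 4.65 ± 0.534 RPKM in wild type and 9.06 ± 0.546 RPKM with Axin1 (SD, n = 3), and rose by a log2 of 0.83 (limma adjusted p = 0.000565). Spry1 rose by a log2 of 0.44. Dusp6, the ERK phosphatase that is itself induced by ERK, went from 61.7 ± 5.37 to 85.9 ± 8.90 RPKM (log2 fold change 0.47, limma adjusted p = 0.0117). Dusp2, a nuclear phosphatase related to Dusp1, went the other way, from 65.1 ± 6.02 to 38.2 ± 2.70 RPKM (log2 fold change -0.75, limma adjusted p = 0.00105). Dusp4 (0.41), another phosphatase, and Spred2 (-0.23), a Sprouty relative, were named after their values were seen, and their calls were lost in 4 and 6 of the 6 fits with a library left out. Spred1 (0.35, limma adjusted p = 0.0135), also named after its value was seen, was higher without overlap and was not followed in those fits. The phosphatase genes Dusp1 and Dusp2 thus changed in opposite directions, each without overlap between the groups.

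Calls among upstream genes went both ways. Of 26 MAP kinases, their kinases and the factors that bind immediate early promoters, all tested, 2 were higher and 2 lower, with a median of -0.01. Over all tested genes 14.4% were higher and 8.37% lower. The groups did not overlap for 7 higher and 7 lower genes of the 26, against 28.0% and 15.9% of all tested genes. Elk3 (log2 fold change 0.30) and Mapk8, which encodes a JNK (0.26), were higher. The coactivator gene Crebbp (-0.28) and Elk4 (-0.68), a partner of serum response factor, were lower. The Elk4 call was lost in 5 of the 6 fits with a library left out, that of Mapk8 likewise in 5, that of Crebbp in 4 and that of Elk3 in 3. Other AP-1 and related bZIP genes showed 1 call of 10 tested, where 22.8% of all tested genes passed. It was Mafk (log2 fold change 0.27, limma adjusted p = 0.0146), with a median of 0.04, and it was lost without Axin1 replicate 2. Of the 3 with the next lowest p, Batf (-0.19), Jdp2 (0.11) and Mafg (-0.09) did not pass.

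Heat shock and chaperone genes had the highest median of these lists, 0.34, and the 6 of 10 tested that passed were higher, where 14.4% of all tested genes were higher and 8.37% lower. Hspa8, the constitutive Hsp70, was 13.8, 10.7 and 13.0 RPKM in wild type and 34.4, 29.0 and 23.2 RPKM with Axin1 (log2 fold change 1.14, limma adjusted p = 0.00168). In contrast to Fos, its highest level was in Axin1 replicate 1. Hspe1, Hsph1 and Hsp90ab1 had log2 fold changes of 0.66, 0.63 and 0.37. The stress-inducible genes Hspa1a and Hspa1b, near-identical copies whose reads may be shared, were below the filter (group means 0.185 to 0.405 RPKM).

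**Figure D4:**
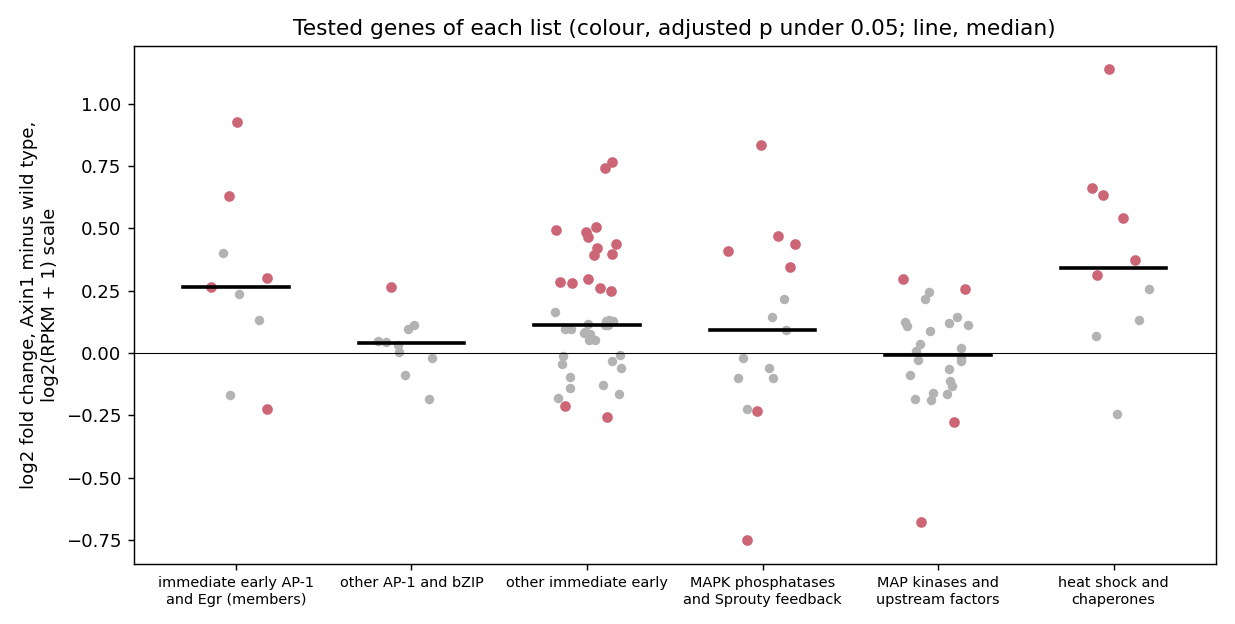
Log2 fold change (y axis, Axin1 overexpression minus wild type, log2(RPKM + 1) scale) of each tested gene of the members and 5 further lists (x axis), coloured where the adjusted p is under 0.05, with a line at the median. The medians are 0.27 for the members, 0.11 for other immediate early genes, 0.34 for heat shock genes and -0.01 for upstream factors.

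The genes with profiles most like those of the members were found by the root mean square difference of log2(RPKM + 1) values, each centred on its own mean over the 6 libraries. Nearest to Fos were Asb4 (0.0934), Ldb2 (0.0946) and Hlx (0.0991), whose log2 fold changes were 0.98, 1.01 and 0.94. Dusp1 was the nearest member to Fos, at rank 43 of all tested genes (0.176), ahead of Egr1 (rank 424) and Jun (rank 767). Nearest to Egr1 were 6330418K02Rik (0.0846), Jmjd7 (0.104) and Snord104 (0.105), with Dusp1 at rank 11 (0.14). Nearest to Jun were Gdi2 (0.0213), Thoc1 (0.0217) and Ywhab (0.0227). Members with small changes resemble many genes by this measure.

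Messages of immediate early genes are known for AU-rich elements in their 3′ untranslated regions, through which they decay fast. The core TATTTAT was counted in the last 500 bases of 3′ untranslated regions at least that long, on the transcript strand, in GENCODE M21 transcripts. It was present in 5 of 9 such members, against 15.6% of 8648 tested genes, and 2 copies were present in Fos and in Dusp1, against 2.51% of those genes. Of the 5, Fos, Dusp1 and Jun were higher, and Jund was lower. A copy from each of the 5 is printed with 9 bases on either side and the core in capitals (GRCm38).
Fos, chr12:85477129-85477153, plus strand: attctcagaTATTTATatttttatt
Dusp1, chr17:26505676-26505700, minus strand: atgtttgttTATTTATgatctgaag
Jun, chr4:95049081-95049105, minus strand: gcttgtgcaTATTTATaatagcgtt
Atf3, chr1:191170340-191170364, minus strand: aatattactTATTTATcccagtatt
Jund, chr8:70700361-70700385, plus strand: attccgcccTATTTATgtttctact
The genes with the core thus include members that rose and the member that fell. Fosb, Egr1, Ier2 and Btg2 held none in their last 500 bases. Fosb and Btg2 each hold 1 copy farther from the transcript end, 648 and 2097 bases before it.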

How the data were processed

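Polyadenylated RNA from affinity-purified ribosomes was sequenced in 6 libraries, 3 per group. Bowtie, DESeq and the build mm9 appear in the submitters' processing notes, without versions. The read counter was not given in the sources used here. Each library has a column of RPKM deposited by the authors, a unit settled from the values because the headers do not name it. Per the file headers, the authors also deposited group means of normalized counts (a signal), their ratio or fold, and p-values, copied here only where named as theirs. Reads were recovered from RPKM and the group means, and 100.0% of values of single-transcript genes came out whole within 0.05 reads. Where a gene has several transcripts only 24.0% did, and its recovered reads are approximate. All members have 1 transcript. A count of 0 allows up to 3 reads, or 0.048 to 0.142 RPKM at 1 kb, for counting error only. Replicates differed by more than sampling noise (chi-square per degree of freedom 6.86 to 37.1) and each was kept as its own sample. The labels call the libraries biological replicates. The p-values weigh the difference between groups against the spread between replicates, and do not cover whatever the tags RS148 and RS216 mark.

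limma 3.58.1 (R 4.3.3) was fitted to log2(RPKM + 1) with genotype alone. On simulated reads with the same dispersion for every gene, it recovered 86.1% of changes of 0.5 in log2 and 99.4% of changes of 1. False calls averaged 14.2 per run over 12493 genes. Smaller changes, such as those of Jun, Junb and Jund, were not simulated. A permutation test of 3 against 3 cannot go below 0.10 and was not used. Named genes were the members, the 4 genes of lowest p in each of 5 pathway lists, every call in lists of 5 or fewer, and the nearest profiles to Fos, Egr1 and Jun. Other named genes were picked after their values were seen. Members and lists were chosen with earlier results of these data known. Alternatives were pseudocounts of 0.1 and 10, no filter or 5 RPKM, median of ratios, voom, trend and robust variances, a replicate block and leaving out each library. Sequences came from RefSeq (GRCm38.p6) and GENCODE M21, another build than the authors' mm9. Tables and plots were made in Python 3.11.15.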

Additional observations from a re-analysis of the deposited data

How the results depend on the processing

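Fos and Dusp1 passed under each of the alternatives run, Fos with no value at a filter of 5 RPKM, which removes it. The members that passed numbered 5, and 3 with no filter on low values, where Jun and Junb were lost. With 1 library left out the members that passed numbered 2 to 5, all tested genes that passed 1054 to 2318, and the genes of the pathway lists that passed 14 to 30 (35 with all libraries). The log2 fold change of Mafg, which passed nowhere, was -0.09, and with 1 library left out it ranged from -0.1487 to 0.025, the latter without wild-type replicate 2. No other tested member, and no other tested gene named from the pathway lists and followed, changed direction. The nearest profiles to Fos, Egr1 and Jun, and Fosb and Spred1, were not followed across the alternatives. The deviations of same-numbered libraries correlated weakly, at 0.078, 0.127 and 0.059 over genes, and those of other pairs at -0.110 to 0.014. Each library thus correlated best with its own number, and whether the replicate numbers pair the libraries was not tested. With the replicate block 2675 genes passed, and 5 members, among which Egr1 was gained (adjusted p = 0.046) and Jund lost (adjusted p = 0.0521). Depth limits Fosb most, at 11 to 34 reads per library.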
